A study of Bos taurus with 6 samples.

Results

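The lipid droplet coat and lipolysis genes were examined in the mRNA libraries of intramuscular fat (IMF) from castrated and intact male Qinchuan cattle. They were taken by gene symbol from the mRNA counts, which list 25444 genes, and comprised the perilipins PLIN1 to PLIN5, the droplet fusion gene CIDEC, the lipases LIPE and MGLL and the lipase activator ABHD5. Of 10 genes asked for, 9 were in the table, and PNPLA2, the adipose triglyceride lipase that opens the breakdown of stored fat, was not analysed here. IMF had been dissected from the sternomandibularis muscle at 24 months of age. All animals had been weaned at 3 months and were fed alike. The castrated males (CM, here steers) had been castrated surgically at 6 months, and the intact males (IM, here bulls) were left entire. Each group was 1 library on an Ion Proton sequencer, made from RNA pooled over 6 animals in the study's design, whereas the sample descriptions give 3 animals.

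A fat cell keeps triglyceride in lipid droplets, and the proteins on the droplet surface decide how easily lipases reach it. PLIN1 is the main coat protein of white fat cells and holds the activator ABHD5 back until a hormone signal through cyclic AMP phosphorylates both PLIN1 and hormone-sensitive lipase, the product of LIPE. ABHD5 then switches on PNPLA2, which releases the first fatty acid, LIPE acts on the diacylglycerol that is left, and MGLL splits the last monoacylglycerol into fatty acid and glycerol. CIDEC works in the other direction, since it passes lipid from smaller to larger droplets and so favours large ones.

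The steers library held 12677375 counts and the bulls library 9868415, and counts were divided by median-of-ratios size factors of 1.04 and 0.959. The difference between the libraries is given as log2 of steers over bulls, with an exact 95% Clopper-Pearson interval of the pair of counts. The interval covers counting error only. It treats reads as independent molecules, which they are not, so it may be too narrow even for that. A gene was called when its two-sided exact binomial p, adjusted by the Benjamini-Hochberg method across the 17752 genes with at least 1 read, was under 0.05 and its difference was more than 2-fold. Because each group was a lone pooled library, no replicate check exists and the test compares 2 libraries, not the conditions. In bulk tissue, fewer cells of a type and less RNA per cell cannot be told apart.

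None of the 9 genes was called in either direction, with 0 called higher and 0 called lower in steers. Over all genes tested, 4.64% were called higher and 8.45% lower, or 13.1% in either direction. The median log2 difference of the 9 genes was -0.02, compared with 0.01 over all genes tested, and 8 of them had an absolute log2 difference under 0.5, as had 69.4% of the 10464 genes with at least 100 counts. At this depth the interval lay wholly within 2-fold for 8 genes, all but PLIN5. The exact binomial test gave an adjusted p under 0.05 for 5 of them (PLIN1, PLIN2, PLIN3, PLIN4 and CIDEC), as it did for 39.3% of all genes tested. At an unadjusted p under 0.05 there were 6 of the 9, PLIN5 included, and 44.9% of all genes. An edgeR exact test that allowed the pools a biological coefficient of variation of 0.1 gave an adjusted p under 0.05 for 0 of the 9 (2 had an unadjusted p under 0.05) and for 16.7% of all genes.

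**Figure D1:**
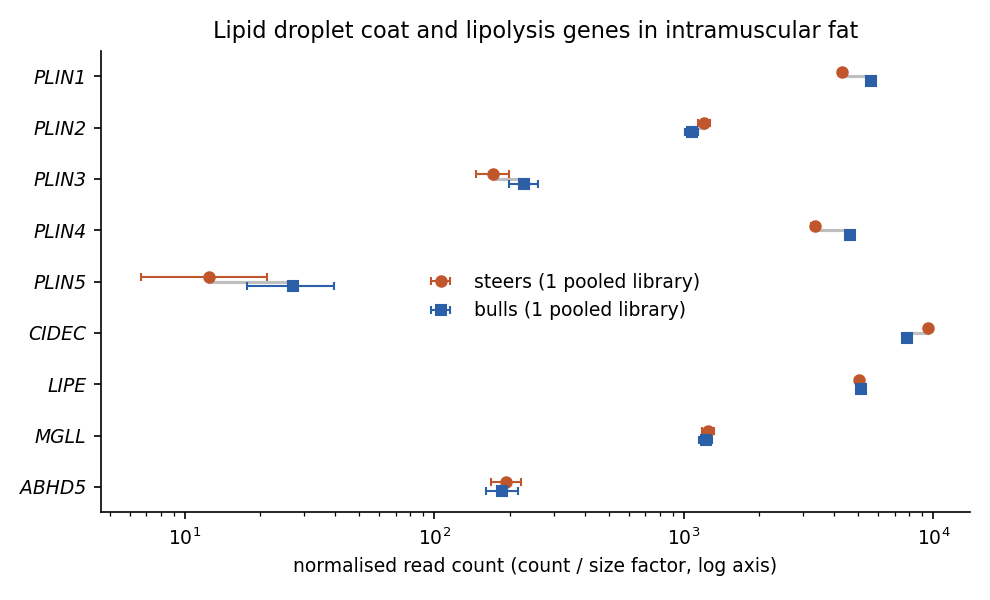
Normalised read counts (log axis) of the 9 genes in the pooled library of steers (circles) and of bulls (squares), with exact 95% counting intervals. PLIN1 and PLIN4 sit to the left in steers and CIDEC to the right, the symbols of LIPE, MGLL and ABHD5 lie almost on top of each other, and PLIN5 has few reads in both libraries.

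Among the coat genes, PLIN1 had 4499 reads in steers and 5386 in bulls, or 4312 and 5619 after scaling. Its log2 difference was -0.38 (interval -0.44 to -0.32), which is 0.768 of the level in bulls. PLIN4, which codes for a long perilipin of white fat cells, had 3482 and 4457 counts, or 3338 and 4650 after scaling. The PLIN4 difference was -0.48 (interval -0.54 to -0.41). Both perilipins with the most reads were thus lower in steers than in bulls by more than counting error and by less than 2-fold. Of the genes with at least 100 counts, 42.0% had a larger absolute log2 difference than PLIN1 and 32.5% a larger one than PLIN4. The spans of PLIN1 and PLIN4 overlap other genes in the RefSeq annotation of ARS-UCD2.0, PEX11A for PLIN1 and HDGFL2 for PLIN4. The extent of the overlaps was not measured. PEX11A had 113 and 105 counts and HDGFL2 617 and 414 in steers and bulls, and the use of strand in counting is not given in the sources used here.

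PLIN2 coats small droplets in most cell types, including muscle and foam cells. It had 1251 reads in steers and 1031 in bulls, a log2 difference of 0.16 (interval 0.04 to 0.28), and was the only perilipin with the higher normalised count in steers, a direction that turned to -0.08 when libraries were scaled by total counts. PLIN3, a coat protein that moves between the cytosol and nascent droplets, had 179 and 219 counts and a log2 difference of -0.41 (interval -0.71 to -0.12). The value of PLIN3 was thus near those of PLIN1 and PLIN4, with a wider interval because it rests on fewer reads.

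PLIN5 ties droplets to mitochondria in oxidative muscle and heart and had 13 reads in steers and 26 in bulls. Its log2 difference of -1.10 (interval -2.21 to -0.11) was past 2-fold, with an adjusted p of 0.0593 in the exact binomial test, and 17.8% of the genes with at least 10 counts over both libraries were past 2-fold. The PLIN5 call depended on settings, since its adjusted p was 0.0495 when genes with fewer than 10 counts were left out and 0.0153 with scaling by total counts. Of 17 skeletal muscle markers, 11 had a log2 difference below 0 and 6 above 0. The slow fibre genes MYL2, MYH7 and TNNT1 were at -2.27, -2.23 and -2.01. Fast fibre genes were spread, with MYH1 at 1.15, TNNC2 at 1.00 and TNNI2 at 0.48. Others of them were near 0 or below, with MYLPF at 0.15, TNNT3 at 0.11, MYH2 at 0.01, ATP2A1 at -0.29 and MYOZ1 at -0.89. Per read of PLIN5 there were 181 reads of MYL2 in bulls and 81.5 in steers, a log2 difference of -1.15 (interval -2.17 to -0.06). The muscle markers as a whole held 0.331% of all reads in steers and 0.635% in bulls, and their part in the PLIN5 value was not tested. PLIN5 and PLIN4 are direct neighbours in ARS-UCD2.0.

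CIDEC had the most counts of the 9 genes, 9931 in steers and 7501 in bulls, or 9519 and 7825 after scaling. Its log2 difference was 0.28 (interval 0.24 to 0.33), a level 1.22 times that in bulls, which shrank to 0.04 with scaling by total counts. CIDEC and the perilipins PLIN1 and PLIN4 therefore lay on opposite sides of 0. A larger absolute log2 difference than that of CIDEC was found for 53.9% of the genes with at least 100 counts.

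With median-of-ratios size factors, the lipolysis genes were the closest to equal. With total counts, CIDEC at 0.04 and PLIN2 at -0.08 were closer to 0 than any of them. LIPE had 5234 reads in steers and 4890 in bulls, or 5017 and 5101 after scaling, and a log2 difference of -0.02 (interval -0.08 to 0.03). MGLL had 1300 and 1171 counts and a difference of 0.03 (interval -0.09 to 0.14), and ABHD5 had 202 and 179 counts and a difference of 0.05 (interval -0.25 to 0.35). All 3 intervals included 0. As levels in steers relative to bulls, they ran from 0.84 to 1.28 for ABHD5, 0.94 to 1.10 for MGLL and 0.95 to 1.02 for LIPE. With total counts, which placed the median log2 difference of all genes at -0.23, the values were -0.26 for LIPE, -0.21 for MGLL and -0.19 for ABHD5, so the sign of MGLL and ABHD5 depends on the scaling. A long non-coding RNA of the RefSeq annotation, LOC104975612, overlaps MGLL to an extent that was not measured.

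**Figure D2:**
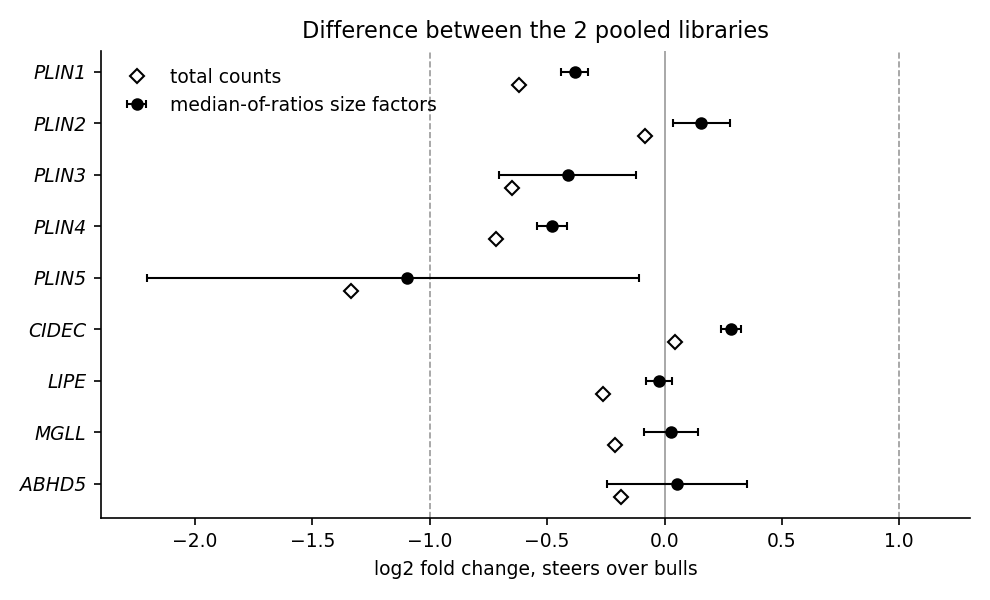
Log2 difference between the libraries, steers over bulls, for each gene. Filled circles use median-of-ratios size factors and carry exact 95% counting intervals, open diamonds use total counts, and dashed lines mark 2-fold. PLIN1, PLIN3, PLIN4 and PLIN5 lie below 0 under both scalings and CIDEC above 0 under both, while PLIN2, MGLL and ABHD5 change side.

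**Figure D3:**
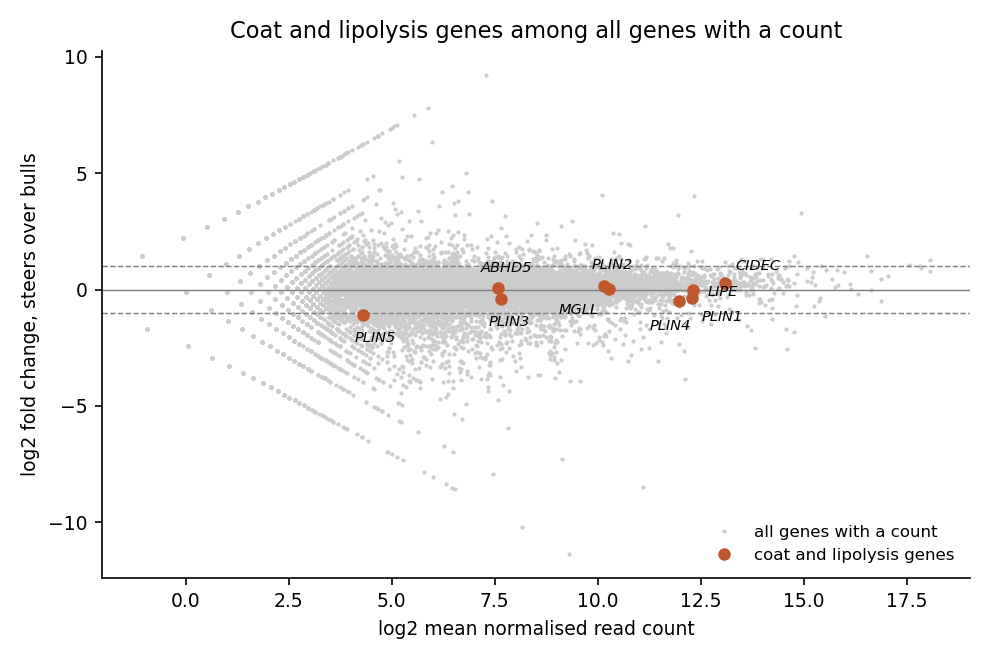
Log2 difference, steers over bulls, against the log2 of the mean normalised read count for all 17752 genes with a count (grey) and the 9 coat and lipolysis genes (orange). Dashed lines mark 2-fold, and 8 of the 9 genes lie between them.

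To compare the genes without any scaling of the libraries, the ratio of each pair of counts was formed within each library. Of the 36 pairs, 24 had a ratio that differed between the libraries by more than its 95% counting interval, without adjustment over the pairs. The pairs share genes and so are not independent. The matching share among pairs of other genes was not computed, so the count is not a result about these genes. CIDEC and PLIN4 differed most among the 28 pairs without PLIN5. There were 2.85 reads of CIDEC per read of PLIN4 in steers and 1.68 in bulls, a log2 difference of 0.76 (interval 0.68 to 0.84). For CIDEC against PLIN1 the ratios were 2.21 and 1.39, a difference of 0.66 (interval 0.59 to 0.74). CIDEC was thus higher in steers relative to both PLIN1 and PLIN4, by less than 2-fold, and such a ratio is the same under every scaling of the libraries.

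PLIN2 shifted against PLIN1 in the same direction as CIDEC, with 0.278 reads of PLIN2 per read of PLIN1 in steers and 0.191 in bulls, a log2 difference of 0.54 (interval 0.41 to 0.67). Accordingly PLIN2 made up 13.3% of all perilipin reads in steers (95% Clopper-Pearson interval 12.6% to 14.0%) and 9.27% in bulls (8.74% to 9.83%). PLIN4 made up 36.9% and 40.1%, and PLIN1 47.7% and 48.4%. These shares are of reads and not per length, so they compare a gene with itself in the other library and not 1 perilipin with another.

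LIPE per PLIN1 was 1.16 in steers and 0.908 in bulls, a log2 difference of 0.36 (interval 0.28 to 0.44). The ratios among LIPE, MGLL and ABHD5 differed by 0.02 to 0.08, and those among PLIN1, PLIN3 and PLIN4 by 0.03 to 0.10. Only the interval of PLIN1 against PLIN4, from 0.01 to 0.18, left out 0 among those 6 pairs. All pairs with a difference over 1 contained PLIN5, which has the fewest counts.

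**Figure D4:**
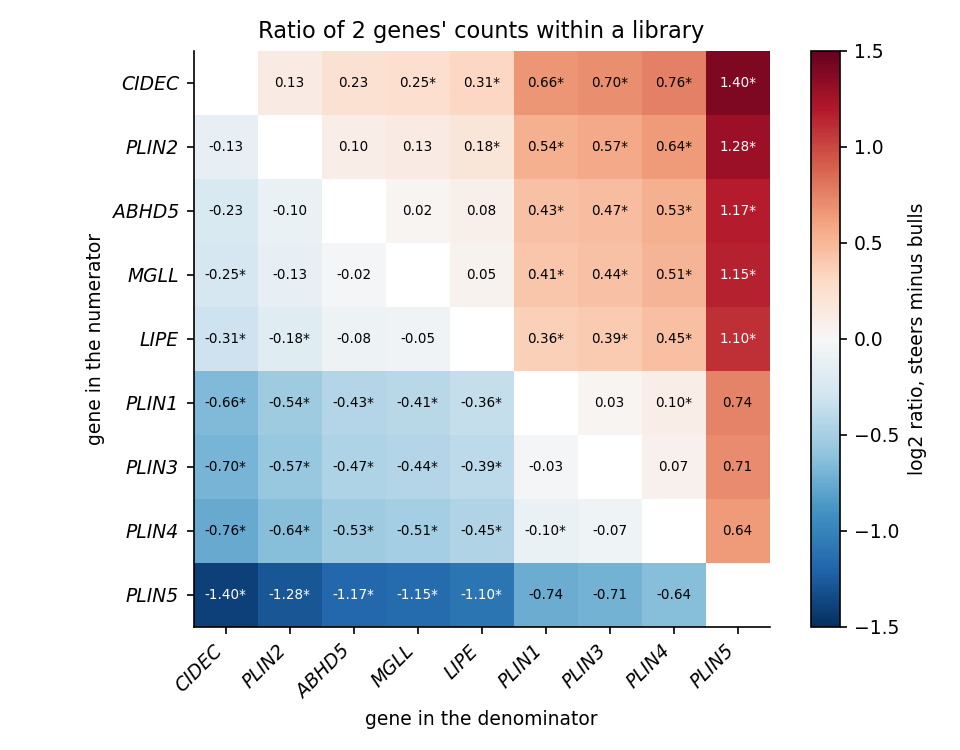
Log2 difference between steers and bulls in the ratio of 2 genes' counts within a library, with the numerator in rows and the denominator in columns. An asterisk marks a 95% counting interval that leaves out 0. The palest cells lie among LIPE, MGLL and ABHD5 and among PLIN1, PLIN3 and PLIN4. CIDEC differs from the lipolysis genes by 0.23 to 0.31, not far from the 0.36 of LIPE against PLIN1. All differences over 1 lie in the row and column of PLIN5.

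Other proteins of the droplet gave 3 genes called higher and 2 called lower among the 18 tested of a list of 20. Among all genes tested, 4.64% were called higher and 8.45% lower. The list had a median log2 difference of 0.36 that was 0.12 with total counts. CIDEA, a relative of CIDEC that also favours large droplets, had 998 reads in steers and 136 in bulls and rose by 2.75 (interval 2.49 to 3.02). SQLE, an enzyme of cholesterol synthesis found on droplets, rose by 1.58 (interval 1.04 to 2.18), from 35 to 115 counts. HILPDA, an inhibitor of PNPLA2 named after its values were seen, had 29 and 12 counts and a difference of 1.12 (interval 0.14 to 2.26), and it fell below 2-fold with total counts, at 0.88. FITM1, which helps droplets bud in muscle, fell by 1.65 on the log2 scale, from 53 to 18 counts, and METTL7A, a methyltransferase-like protein found on droplets, fell by 1.36, from 55 to 23. CAVIN1, a caveola protein with the most counts of the list, had a difference of 0.46 and was not called.

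The other lipases and hydrolases of neutral lipids had 1 gene called higher and 1 called lower among 11 tested, with a median of -0.16, and -0.40 with total counts. Over all genes, 13.1% were called in either direction. LIPG, the endothelial lipase, rose by 2.34 (interval 1.82 to 2.92), from 34 to 189 counts. LIPA, the lysosomal acid lipase, fell by 1.54 on the log2 scale, from 938 to 350 counts. ABHD12, a hydrolase of monoacylglycerol and lysophospholipids with the most counts of the list, had 830 and 901 counts, a difference of -0.24, and was not called. Of 12 myeloid markers, 10 were called lower with a median of -1.70, or -1.94 with total counts, and their part in the LIPA value was not tested.

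Genes that carry hormone signals to lipolysis numbered 32 tested of 35 listed, of which 0 were called higher and 5 lower, with a median of -0.29, and -0.53 with total counts. Over all genes, 4.64% were called higher and 8.45% lower. HCAR1, a lactate receptor that restrains lipolysis, had 15 reads in steers and 51 in bulls and fell by 1.85 on the log2 scale. ADCY4, an adenylyl cyclase that makes cyclic AMP, fell by 1.33, from 229 to 99 counts, and PDE4D, a phosphodiesterase that degrades it, fell by 1.33, from 63 to 27. ADRB1, a beta-adrenergic receptor, had 1 read in steers and 11 in bulls, with an interval of -9.01 to -0.80. PRKACB, a catalytic subunit of protein kinase A named after its values were seen, was the fifth gene called lower, at -1.09. GNAS, the stimulatory G protein subunit with the most counts of the list, had a difference of 0.46 and was not called.

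Genes that make fat were compared with those that store and release it. Of triglyceride assembly genes, 5 of 12 tested were called higher and 0 lower, against 4.64% and 8.45% of all genes. The called differences ran from 1.33 to 1.45. The list median was 0.26, and 0.02 with total counts, with 8 genes above 0 and 4 below. LPIN1, the phosphatidate phosphatase that makes diacylglycerol, rose by 1.35 from 1682 to 4683 counts. The others called were GPAM, GPD1, AGPAT2 and DGAT2. The study itself picked these from the same libraries, as it did FASN, ELOVL6, PRKACB and LPL, so their direction here is not independent evidence. In a separate qRT-PCR assay the study reported LPL, FASN, DGAT2 and AGPAT2 higher and PRKACB lower in steers. In fatty acid synthesis, 5 of 9 tested were called higher and 0 lower. Those called were ACSS2, FASN, ACACA, ELOVL6 and THRSP, the last named after its values were seen, with differences from 1.94 to 4.03. The median of that list was 1.94, and 1.70 with total counts. The mRNA of ACACA, which codes for the acetyl-CoA carboxylase that makes malonyl-CoA, rose by 3.21 from 735 to 7423 counts. No test of the difference between lists is possible with 1 library per group.

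**Figure D5:**
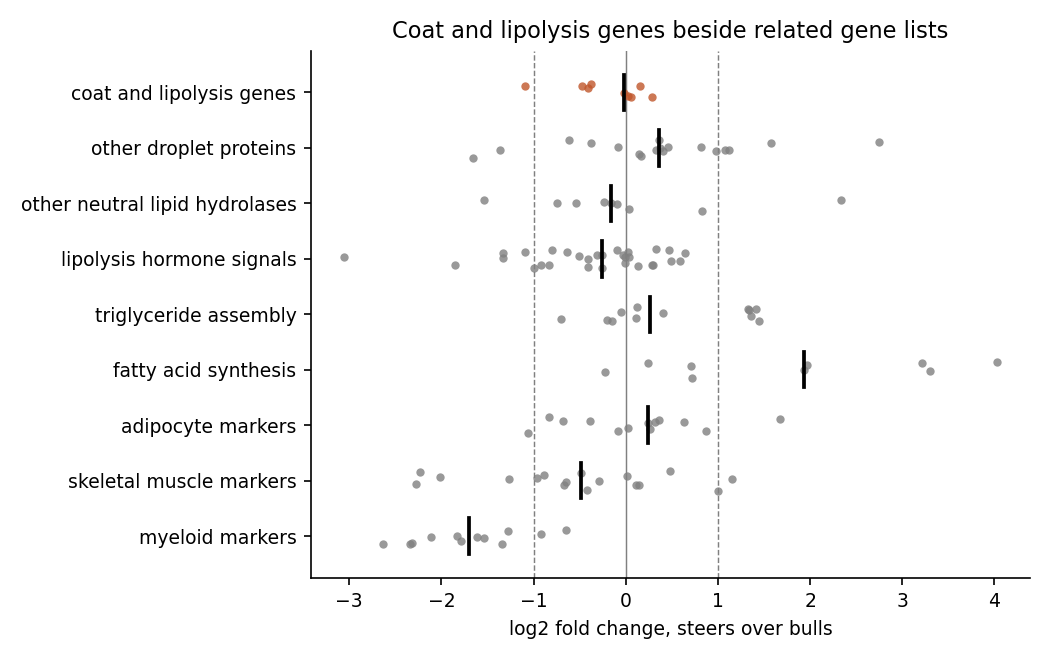
Log2 difference, steers over bulls, of each gene with at least 10 counts over both libraries (points), by list, with the list's median as a black bar and 2-fold as dashed lines. Of the 9 coat and lipolysis genes (orange), 8 lie within 2-fold and PLIN5 at -1.10, around a median of -0.02, whereas fatty acid synthesis has a median of 1.94 and the myeloid markers one of -1.70.

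The labelled tissue was checked against marker lists. All 13 adipocyte markers analysed had counts in both libraries, and they held 0.370% of all reads in steers and 0.416% in bulls, with a median difference of 0.24 that was 0.0043 with total counts, 1 called higher (LPL) and 1 called lower (FABP4). No skeletal muscle marker was at 0 either, and they held 0.331% of all reads in steers and 0.635% in bulls. Of 17 tested, 1 was called higher and 4 lower, with a median of -0.49, and -0.73 with total counts. The shares over all genes tested were 4.64% called higher and 8.45% lower. Myeloid markers held 0.269% of all reads in steers and 0.880% in bulls. T lymphocyte markers were scarce, at 135 and 1010 counts in all, with 10 of 10 called lower, a median of -3.16 (-3.40 with total counts) and CD3G at 0 in steers. Endothelial markers had 0 of 8 called and a median of -0.24, or -0.48 with total counts. Stromal markers had 2 of 9 called higher and a median of 0.93, or 0.69 with total counts. They held the largest share of these lists, 9.57% of all reads in steers and 5.86% in bulls. The part of these cell types in the values of PLIN1, PLIN2, PLIN4 and CIDEC was not tested.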

How the data were processed

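The deposited table holds raw read counts, 1 row per gene. Before counting, the authors trimmed adaptors, dropped reads of low quality and mapped the remainder to a bovine genome with MapSplice. The counting program, its annotation and its use of strand are not given in the sources used here. The submitters' processing notes name BWA and GRCh37.p13, a human build, for every sample. The treatment label put each library in its group.

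Size factors were medians of ratios to the geometric mean. Log2 differences used a prior of 0.5 counts. The exact binomial test came from scipy 1.17.1 and was tested on simulated counts. Those counts had counting error only and no spread between animals or pools, so they checked the code and not the calls. Ratios of 2 genes have conditional exact intervals. The alternatives were total counts, TMM and upper-quartile scaling, a filter of 10 counts, a prior of 5, scaling without the 10 genes with most counts, and edgeR 4.0.16 exact tests with assumed coefficients of variation of 0.1, 0.2 and 0.4.

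Genes were matched by symbol, or by an older symbol or gene ID in the RefSeq table of ARS-UCD2.0 (8 of the 162 list genes found). Genes named from a pathway list were the called genes with at least 10 counts in either library, at most the 4 with the largest differences, and the gene with the most counts. The genes and lists were chosen with earlier results of these data known. Levels were not compared between genes, since transcript lengths were not used here. The miRNA counts were not used here.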

Additional observations from a re-analysis of the deposited data

How the results depend on the processing

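With 1 library per group, counting error is the only error that could be measured, and the spread between animals behind each pool is unknown. None of the 9 coat and lipolysis genes was called higher in any of the settings run. PLIN5 was the 1 of the 9 called lower with total counts, with total counts that left out the 10 genes with most counts, and with a filter of 10 counts. It was not called in the other settings, and a prior of 5 counts brought its log2 difference from -1.10 to -0.91, within 2-fold. The median log2 difference of the 9 genes was -0.02 and became -0.26 with total counts and -0.17 with total counts without the 10 genes with most counts. Total counts reversed PLIN2 to -0.082, MGLL to -0.21 and ABHD5 to -0.19, and without the 10 genes with most counts MGLL was at -0.11 and ABHD5 at -0.091. Those scalings place the median of all genes at -0.23 and -0.13. Over all genes, 823 were called higher and 1500 lower. With an assumed coefficient of variation of 0.2 these were 368 and 762, and with 0.4 they were 52 and 93. Total counts moved the higher share of calls from 35.4% to 21.9%. The other 82 values of the 9 genes under an alternative kept their sign and, as in the main setting, were not called. No paired analysis was possible because each group has 1 mRNA library.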

Other observations

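Genes that work together with the coat and lipolysis genes were set against them within a library, in pairs chosen after the values were seen, and shifted in both directions. There were 0.0181 reads of CIDEA per read of CIDEC in bulls and 0.1005 in steers, a log2 difference of 2.47 (counting interval 2.21 to 2.74). DGAT2, which makes triglyceride, had 1.74 reads per read of LIPE in bulls and 4.45 in steers, a difference of 1.35 (interval 1.28 to 1.42). FITM2, which helps droplets bud from the endoplasmic reticulum, had 0.116 reads per read of PLIN1 in bulls and 0.267 in steers, a difference of 1.20 (interval 1.05 to 1.36). LIPE had 0.646 reads per read of FABP4, the fatty acid carrier that binds the lipase, in bulls and 1.32 in steers, a difference of 1.04 (interval 0.96 to 1.12). FABP4 was itself the 1 adipocyte marker called lower, at -1.06. In the other direction, LIPA had 0.192 reads per read of LIPE in bulls and 0.0669 in steers, a difference of -1.52 (interval -1.71 to -1.33), and G0S2 had 0.137 and 0.108, a difference of -0.35 (interval -0.52 to -0.18).

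G0S2, an inhibitor of PNPLA2, had 564 reads in steers, 671 in bulls and a log2 difference of -0.37 (interval -0.54 to -0.21), and was not called. PLIN1 per read of ADIPOQ, the adiponectin gene of fat cells, was 0.997 in steers and 0.810 in bulls, a difference of 0.30 (interval 0.22 to 0.38). PLIN1 was thus lower in steers against the median of all genes and higher against ADIPOQ, which was itself at -0.68. The median of the 13 adipocyte markers was 0.24, and PLIN1 at -0.38 was below it.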
